A study of Mus musculus with 12 samples.

Results

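P2rx7, the gene of the ATP-gated channel P2X7, was described together with 7 other genes of extracellular nucleotide signalling: the receptor genes P2rx4, P2rx5, P2ry2 and P2ry6, the ectonucleotidase genes Entpd1 and Nt5e, and the release channel gene Panx1. These 8 genes of the 47517 in the count table were taken by name, with P2rx7 at their head because its RNA was higher in Cre-positive cells given 4-hydroxytamoxifen (4-OHT) than in those given ethanol. That comparison therefore describes the 8 genes and is not a test of them. The other 7 genes were listed for their function. The cells were mouse embryonic fibroblasts from C57BL/6 embryos at E13.5, immortalised with SV40 large T antigen. All groups carried floxed Ssb1 (gene symbol Nabp2) and Ssb2 (Nabp1). Ssb1 was labelled Fl/F in Cre-positive cells and Fl/Fl in Cre-negative cells, and Ssb2 Fl/Fl in both. The 6 groups of 2 libraries were Cre-positive cells (RosaCreERT2, a Cre that 4-OHT activates, made from the Rosa locus) given 4-OHT for 5 days, given ethanol as vehicle for 5 days, or left untreated, and Cre-negative cells with 4-OHT, ethanol or no treatment. No label gives a day for untreated cells, so the vehicle and the days in culture cannot be told apart in comparisons with them. The labels do not say whether a group's libraries were grown as separate cultures, or whether each genotype is the line of 1 embryo. The p values therefore reflect only how far these libraries vary, possibly for technical reasons, and a difference between lines cannot be told apart from one due to Cre.

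Cells release ATP through pannexin and other channels, and the ATP acts on P2X receptors, which are ligand-gated cation channels, and on P2Y receptors, which couple to G proteins. CD39, coded by Entpd1, degrades ATP and ADP to AMP, and CD73, coded by Nt5e, turns AMP into adenosine, which has receptors of its own. P2X7 needs far more ATP than other P2X receptors to open, is best known in macrophages as a trigger of the NLRP3 inflammasome, and is also made by fibroblasts.

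Libraries held 20201855 to 36367012 counts, and 17609 genes passed the filter on low counts, 6 of the 8 among them. Levels are counts scaled to library size (CPM) after normalisation by the trimmed mean of M values (TMM), and 1 count stood for 0.0283 to 0.0491 CPM. The deleted genes followed their labels: Nabp1 was at 3.40 and 3.96 CPM in Cre-positive 4-OHT libraries and 14.5 and 15.9 CPM with ethanol, and Nabp2 at 4.84 and 5.09 CPM with 4-OHT and 19.8 and 22.6 CPM with ethanol. Both were already lower in the Cre-positive line before treatment. Untreated Cre-positive and Cre-negative cells averaged 15.7 ± 0.6 and 26.3 ± 1.6 CPM for Nabp1 (SD, n = 2 each). For Nabp2 they averaged 21.6 ± 1.3 and 27 ± 0.043 CPM. Fibroblast markers summed to at least 6440 CPM in every library, of which Vim gave 3310 to 3970 CPM on average per group. Not all were present: Thy1 had 0 counts in every Cre-negative library and 1 to 5 counts per Cre-positive group. Group means were at most 0.699 CPM for Dcn and 0.220 CPM for Lum.

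P2rx7 and P2rx4 are adjacent genes on the same strand of chromosome 5 and behaved differently, so the sequence before each start is shown (RefSeq, GRCm38.p6, plus strand). Capitals mark the AP-1 motif TGANTCA and the GC box GGGCGG on either strand, and the P2rx7 window stops at its first transcribed base in GENCODE M21.
P2rx7, chr5:122643677-122643910: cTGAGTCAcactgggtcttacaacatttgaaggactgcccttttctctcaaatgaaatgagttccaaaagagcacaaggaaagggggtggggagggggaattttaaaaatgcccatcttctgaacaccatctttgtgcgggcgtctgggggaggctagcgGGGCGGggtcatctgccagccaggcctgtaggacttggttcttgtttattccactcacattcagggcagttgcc
P2rx4, chr5:122707294-122707543: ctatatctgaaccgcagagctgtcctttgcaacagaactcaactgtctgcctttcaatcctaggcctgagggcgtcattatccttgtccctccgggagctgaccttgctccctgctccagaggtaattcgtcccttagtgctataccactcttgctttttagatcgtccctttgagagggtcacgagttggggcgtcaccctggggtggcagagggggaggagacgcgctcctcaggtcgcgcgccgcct
In the 250 bases before its RefSeq start, P2rx7 had 1 AP-1 motif and 2 GC boxes, the second of which lies in the bases not printed. P2rx4 had neither in its 250 bases. Of 32851 mouse promoter windows of that length, 6.75% held the AP-1 motif and 32.7% the GC box. The E box CANNTG was found 4 times for P2rx7 and 1 time for P2rx4, and in 66.2% of windows. The motif TGACG, part of the CRE, was absent for P2rx7 and found 2 times for P2rx4, and in 17.8% of windows. Neither window held the GAS motif TTCNNNGAA, which 7.02% held, the ISRE core, which 2.98% held, or the NF-kB motif, which 0.14% held; all were read on both strands. A match is a description of the letters and shows no binding. The RefSeq table held a window for 6 of the 8 genes, the exceptions being P2rx5 and P2ry6.

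P2rx7 (ENSMUSG00000029468.17, GRCm38 chromosome 5, 122643911 to 122691432, plus strand, 17 merged exons) was highest in Cre-positive cells with 4-OHT, at 11 CPM in library 11 and 12.4 CPM in library 12. Cre-positive cells with ethanol held 3.21 and 3.05 CPM, and untreated Cre-positive cells 1.77 and 2.31 CPM. Cre-negative cells held 2.96 and 2.31 CPM with 4-OHT, 1.90 and 1.78 CPM with ethanol, and 0.264 and 0.609 CPM untreated. Both Cre-positive 4-OHT libraries stood above the other 10, and both untreated Cre-negative libraries below the other 10. The groups between these ends lay close together: untreated Cre-positive and Cre-negative ethanol libraries overlapped, and Cre-negative 4-OHT libraries came down to the higher of the untreated Cre-positive ones. In the comparison that chose it, P2rx7 was 3.74 times as high with 4-OHT as with ethanol (log2 1.90, SE 0.14), at rank 162 from the highest log2 fold change among 17609 genes. Against untreated Cre-positive cells, which share the 4-OHT libraries, it was 5.73 times as high (log2 2.53, SE 0.161). Ethanol against untreated Cre-positive cells, which shares the ethanol libraries, gave a ratio of 1.53 (log2 0.63, SE 0.202). With ethanol and untreated cells as 1 joint control the log2 value was 2.22. P2rx7 shares 119 exonic bases with the miRNA gene Mir8115 on the same strand, whose reads cannot be told apart from its own.

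**Figure D1:**
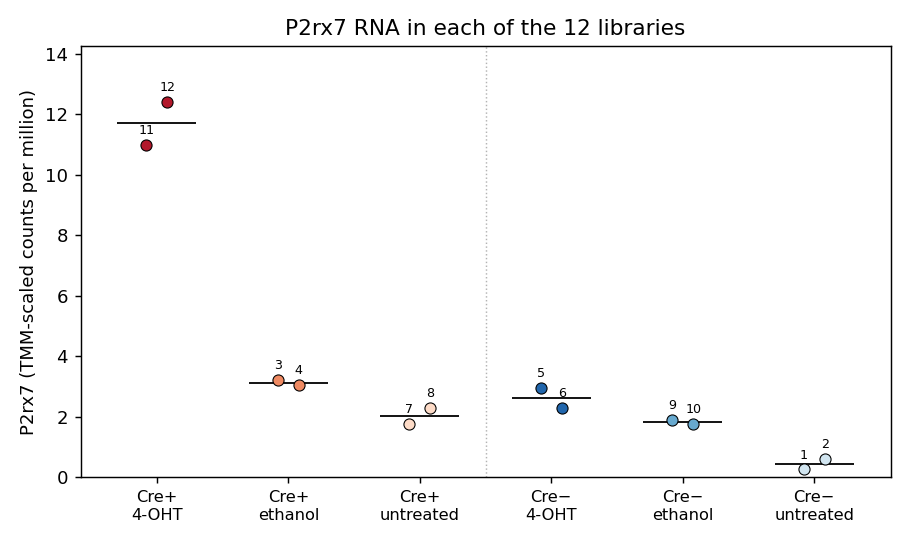
P2rx7 RNA in TMM-scaled CPM (vertical axis, from 0) in the 12 libraries by group (horizontal axis), with the library number above each point and a bar at each group mean. The Cre-positive 4-OHT libraries sit at 11 and 12.4 CPM, and the untreated Cre-negative libraries at 0.264 and 0.609 CPM.

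In Cre-negative cells, whose libraries the choice of P2rx7 did not use, P2rx7 rose with ethanol and with 4-OHT against untreated cells. With ethanol it averaged 1.84 ± 0.087 CPM, against 0.437 ± 0.24 CPM untreated (SD, n = 2 each), a ratio of 4.21 (log2 2.00, SE 0.31, edgeR quasi-likelihood adjusted p = 5.08e-05). With 4-OHT it averaged 2.64 ± 0.46 CPM against the same untreated cells, a ratio of 6.03 (log2 2.5, SE 0.289, edgeR adjusted p = 1.49e-06). These P2rx7 changes ranked 111 and 61 from the highest among 17609 genes. Both rest on the 6 and 17 counts of untreated libraries 1 and 2: without library 2 the ethanol value was 2.78 and the 4-OHT value 3.27 on the log2 scale, and without library 1 they were 1.59 and 2.08, all past the threshold in edgeR. The step from ethanol to 4-OHT in Cre-negative cells was not resolved: 2.64 ± 0.46 CPM with 4-OHT and 1.84 ± 0.087 CPM with ethanol (log2 0.50, SE 0.207, edgeR adjusted p = 0.173). The Cre-positive minus the Cre-negative change with 4-OHT against ethanol was 1.40 (SE 0.257), which has no test because the Cre-positive change chose the gene. For ethanol against untreated, the Cre-positive minus the Cre-negative change was -1.37 (SE 0.384), also untested.

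The lines differed in P2rx7 before any treatment. Untreated Cre-positive cells averaged 2.04 ± 0.38 CPM, against 0.437 ± 0.24 CPM in untreated Cre-negative cells (SD, n = 2 each), a ratio of 4.67 (log2 2.14, SE 0.313, edgeR adjusted p = 6.2e-06). Leaving out 1 library at a time gave log2 values of 1.72 to 2.91, the highest without Cre-negative library 2. With ethanol the ratio of Cre-positive to Cre-negative cells was 1.70 (log2 0.77, SE 0.197) and with 4-OHT 4.44 (log2 2.17, SE 0.147). These values share libraries with the choice of the gene and have no test.

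P2rx4, the most abundant P2X receptor gene here (ENSMUSG00000029470.15, chromosome 5, 122707544 to 122729738, 16.1 kb after the end of P2rx7), did not follow it. It was at 20.3 and 17.6 CPM in Cre-positive 4-OHT libraries, 23.1 and 22.8 CPM with ethanol and 21.9 and 22.9 CPM untreated. Cre-negative libraries held 43.4 and 43.8 CPM with 4-OHT, 52.7 and 52.0 CPM with ethanol, and 53.1 and 48.5 CPM untreated. Every Cre-positive library lay below every Cre-negative one. How many of all genes separate the lines this way was not counted. Between the untreated lines 49% of all genes passed the edgeR threshold. Among untreated cells the Cre-positive level was 0.441 times the Cre-negative level (log2 -1.18, SE 0.0685, edgeR adjusted p = 3.15e-12). P2rx4 was slightly lower with 4-OHT in each line. In Cre-negative cells it was at log2 -0.26 against ethanol (SE 0.0612, edgeR adjusted p = 0.0121) and -0.22 against untreated (SE 0.0619, adjusted p = 0.0155). The first call was lost without any 1 of libraries 5, 6, 9 and 10, with adjusted p of 0.0928, 0.0622, 0.0736 and 0.0771 in edgeR. The second was lost without library 1, 5 or 6, with adjusted p of 0.191, 0.0832 and 0.0733. In Cre-positive cells the value was -0.27 against ethanol (SE 0.0718, not tested) and -0.23 against untreated (SE 0.0745, edgeR adjusted p = 0.0169). The call against untreated was lost without library 8 (adjusted p = 0.0826) or 12 (adjusted p = 0.224).

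P2rx5 (ENSMUSG00000005950.14, chromosome 11, 73160421 to 73172685), the third P2X gene, was present at a few CPM. It was at 3.06 and 2.56 CPM in Cre-positive 4-OHT libraries, 3.32 and 3.75 CPM with ethanol and 2.52 and 2.46 CPM untreated. Cre-negative libraries held 4.37 and 4.46 CPM with 4-OHT, 4.89 and 5.23 CPM with ethanol and 5.29 and 4.55 CPM untreated. Among untreated cells the Cre-positive level was 0.506 times the Cre-negative one (log2 -0.97, SE 0.159, edgeR adjusted p = 2.46e-05). In Cre-positive cells P2rx5 passed the test with ethanol against untreated (log2 0.51, SE 0.165, edgeR adjusted p = 0.0419), a call lost without library 4 (adjusted p = 0.246), 7 (0.163) or 8 (0.15) and with DESeq2 (adjusted p = 0.163). In Cre-negative cells ethanol against untreated gave 0.05 (SE 0.134, edgeR adjusted p = 0.831). The difference between these ethanol effects was 0.46 (SE 0.213, edgeR adjusted p = 0.16).

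Of the G protein-coupled receptors for nucleotides, P2ry2, which binds ATP and UTP, was near the detection filter and P2ry6, a UDP receptor, below it. P2ry2 (ENSMUSG00000032860.5, chromosome 7, 100996568 to 101012866) was at 0.481 and 0.766 CPM in Cre-positive 4-OHT libraries, 1.07 and 1.14 CPM with ethanol and 1.14 and 0.442 CPM untreated. Cre-negative libraries held 1.46 and 2.41 CPM with 4-OHT, 1.36 and 1.13 CPM with ethanol and 1.81 and 1.33 CPM untreated. With 4-OHT its libraries lay below the ethanol libraries in Cre-positive cells and above them in Cre-negative cells. The values were log2 -0.84 in Cre-positive cells (SE 0.367, not tested) and 0.68 in Cre-negative cells (SE 0.298, edgeR adjusted p = 0.2). Under 4-OHT P2ry2 was lower in Cre-positive than in Cre-negative cells (log2 -1.69, SE 0.33, edgeR adjusted p = 0.000141). Among untreated cells the value was -0.90 (SE 0.357, edgeR adjusted p = 0.0418), lost without library 1 (adjusted p = 0.226) or 8 (adjusted p = 0.371) and with DESeq2 (adjusted p = 0.114). P2ry6 had 0 to 4 counts in each of the 12 libraries, too few for a comparison.

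The ectonucleotidases differed widely. Entpd1, for CD39, had 0 to 5 counts per library, and a count of 0 allows up to 0.132, 0.108 and 0.116 CPM in Cre-negative libraries 1, 2 and 9. Its 2 counts at most in 11 libraries and 5 in library 12 gave no basis for a comparison. Nt5e, for CD73 (ENSMUSG00000032420.8, chromosome 9, 88327197 to 88372092), was readily measured. It was at 12.4 and 12.8 CPM in Cre-positive 4-OHT libraries, 14.5 and 14.2 CPM with ethanol and 15.1 and 13.2 CPM untreated. Cre-negative libraries held 47.2 and 43.6 CPM with 4-OHT, 61.7 and 57.2 CPM with ethanol and 62.0 and 59.4 CPM untreated. Nt5e was thus far lower in the Cre-positive line, at 0.233 times the Cre-negative level among untreated cells (log2 -2.09, SE 0.0719, edgeR adjusted p = 3.19e-16). Nt5e fell with 4-OHT in cells without Cre: by 0.39 on the log2 scale against ethanol (SE 0.0599, edgeR adjusted p = 4e-04) and by 0.42 against untreated (SE 0.0603, adjusted p = 2.62e-05). Leaving out 1 library at a time left both past the threshold in edgeR, with adjusted p of at most 0.0133 and 0.00218. In Cre-positive cells Nt5e was at -0.19 against ethanol (SE 0.0814, not tested) and -0.18 against untreated (SE 0.0848, edgeR adjusted p = 0.107, but 0.038 without library 8). Ethanol against untreated gave 0.011 in Cre-positive cells (SE 0.0848, edgeR adjusted p = 0.958) and -0.03 in Cre-negative cells (SE 0.0585, adjusted p = 0.763).

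Panx1, for the channel pannexin 1 that lets ATP out of cells (ENSMUSG00000031934.14, chromosome 9, 15002128 to 15045478, minus strand), was at 6.40 and 6.46 CPM in Cre-positive 4-OHT libraries, 8.62 and 8.62 CPM with ethanol and 7.71 and 8.31 CPM untreated. Cre-negative libraries held 14.1 and 12.4 CPM with 4-OHT, 13.8 and 12.9 CPM with ethanol and 13.3 and 12.5 CPM untreated. The Cre-positive 4-OHT libraries were the lowest of the 12, and the 3 Cre-negative groups overlapped. Panx1 was at log2 -0.42 with 4-OHT against ethanol in Cre-positive cells (SE 0.101, not tested) and -0.31 against untreated (SE 0.107, edgeR adjusted p = 0.0243). The call against untreated was lost without library 8, 11 or 12, with adjusted p of 0.123, 0.097 and 0.0718, and with DESeq2 (adjusted p = 0.105). In Cre-negative cells the change with 4-OHT against ethanol was -0.02 (SE 0.0882, edgeR adjusted p = 0.93). Among untreated cells the Cre-positive level was 0.62 times the Cre-negative level (log2 -0.69, SE 0.0996, edgeR adjusted p = 5.13e-06).

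**Figure D2:**
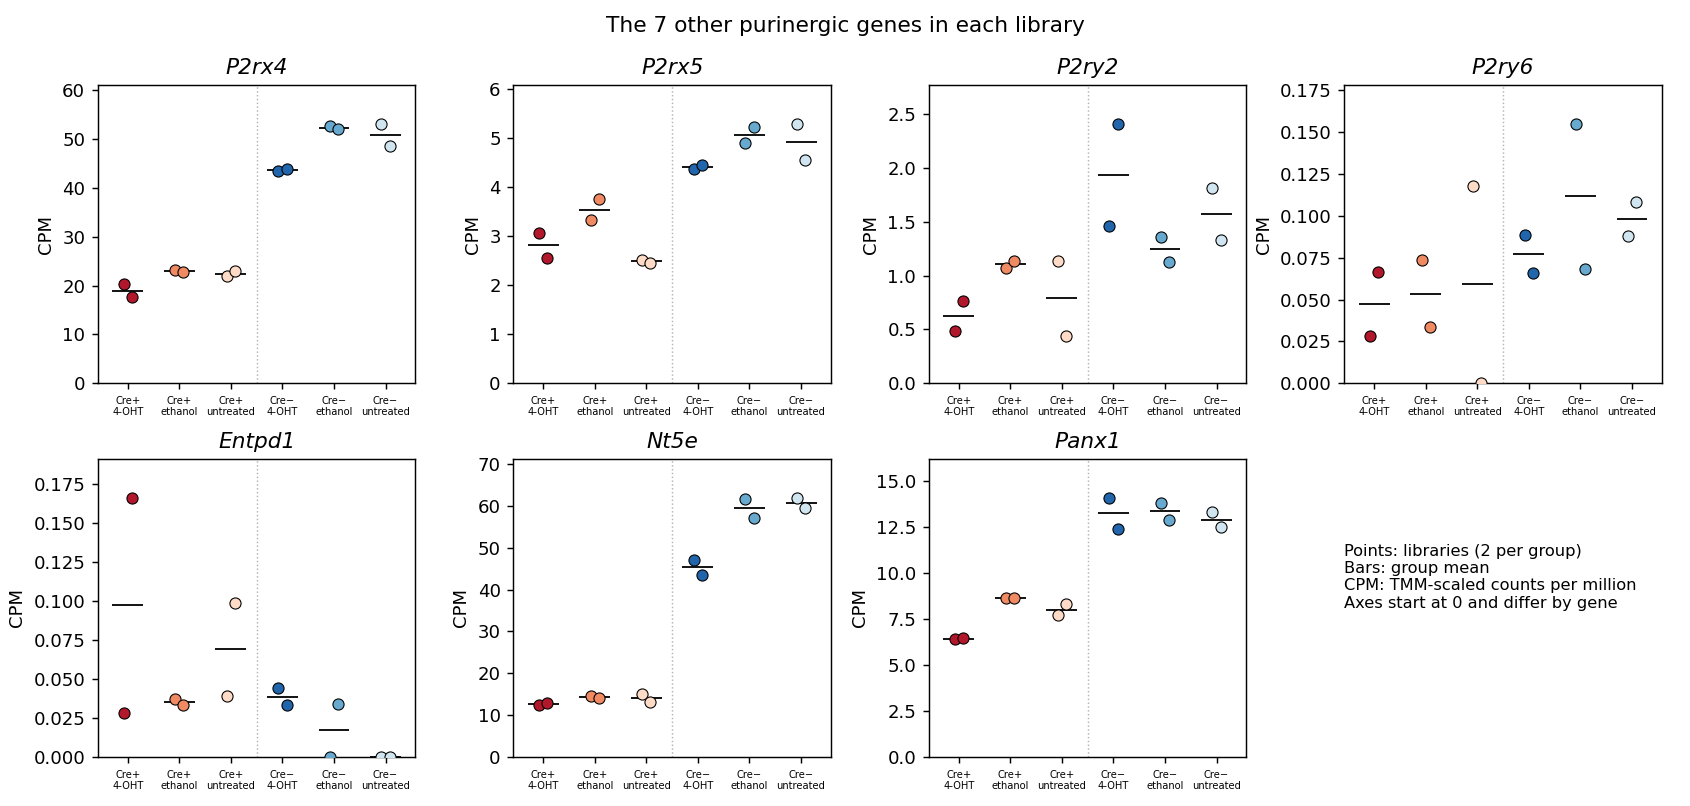
TMM-scaled CPM (vertical axes, from 0, scaled per gene) of the 7 other genes in the 12 libraries by group (horizontal axes), points being libraries and bars group means. P2rx4, P2rx5, Nt5e and Panx1 are lower in all Cre-positive than in all Cre-negative libraries, and Entpd1 and P2ry6 stay below 0.17 CPM. The share of all genes that separate the lines this way was not counted. Between the untreated lines 49% of all genes passed the edgeR threshold.

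In Cre-positive cells with 4-OHT against ethanol, 38.3% of all genes passed the edgeR threshold. No count of members is given there, since that contrast chose P2rx7. For Cre-positive 4-OHT against untreated, 2 of the 5 measured members other than P2rx7 passed, both lower, beside 39.2% of genes called and 18.2% called lower. In Cre-negative cells 2 of 6 passed with 4-OHT against ethanol (P2rx4 and Nt5e, both lower), beside 5.99% of genes called and 2.65% called lower, and 3 of 6 with 4-OHT against untreated, beside 19.2%. With ethanol against untreated, 1 of 6 passed in Cre-negative cells, beside 24.5% of genes, and P2rx5 alone of 5 in Cre-positive cells, beside 14.9%. Between the untreated lines 6 of 6 passed, 5 of them lower in Cre-positive cells, beside 49% of all genes and 24.6% called lower. With ethanol 4 of 5 members other than P2rx7 passed, beside 54.5% of genes called and 28.1% called lower, and with 4-OHT 5 of 5, beside 60.7% called and 30.2% called lower; all of these were lower in Cre-positive cells. For the difference of 4-OHT effects between the lines 28.3% of all genes passed, and for the difference of ethanol effects 16.3%. Both draw on libraries that chose P2rx7, so no count of members is given for them. The median log2 change of all tested genes was 0.0073 between untreated lines and 0.026 for Cre-positive 4-OHT against ethanol.

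**Figure D3:**
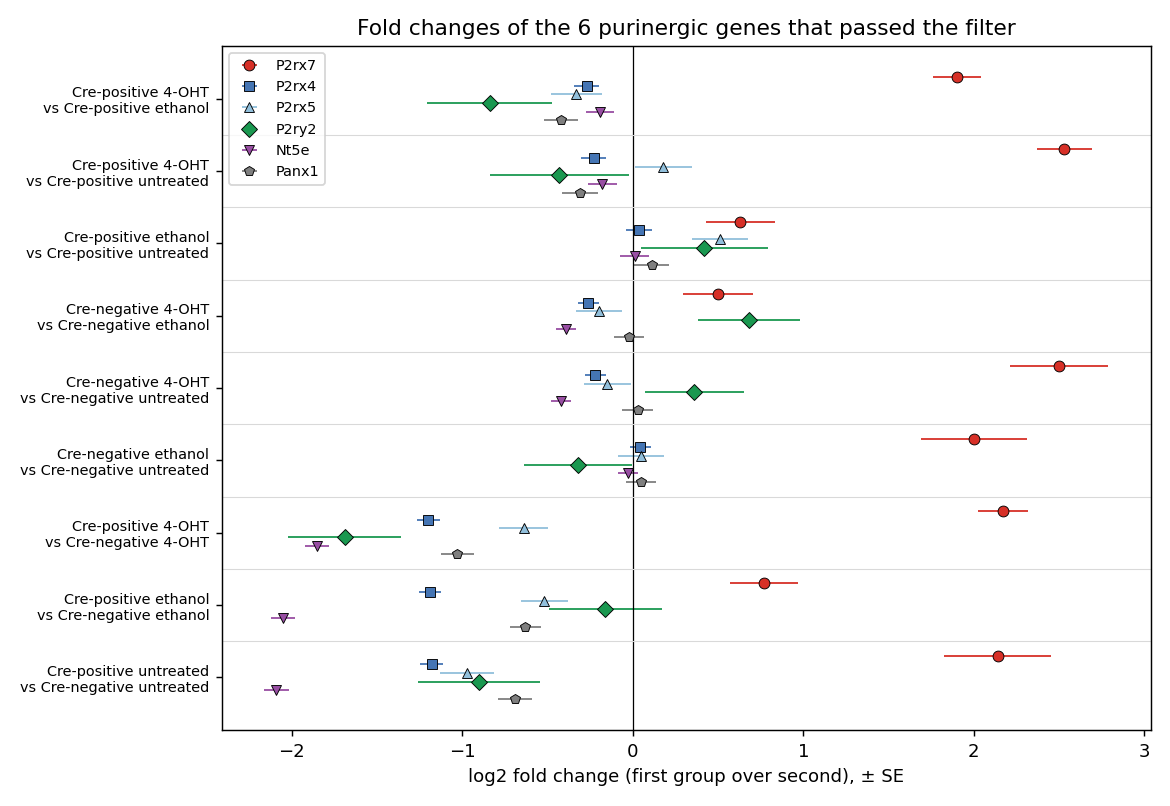
Log2 fold changes (horizontal axis, first group over second, with SE bars) of the 6 genes that passed the filter, in 9 comparisons (vertical axis). P2rx7 is right of 0 in each of the 9, and P2rx4, P2rx5, P2ry2, Nt5e and Panx1 are left of 0 in the 3 comparisons of Cre-positive with Cre-negative cells at the bottom, P2ry2 within its SE of 0 with ethanol.

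Per length of exon, P2rx7 stood next below P2rx4 in Cre-positive 4-OHT cells, the group that chose it, and below P2rx4, Nt5e, Panx1 and P2rx5 in both untreated groups. In Cre-positive 4-OHT cells the levels were 2.70 ± 0.27 CPM per kb for P2rx4, 1.96 ± 0.16 for P2rx7, 1.46 ± 0.032 for Nt5e, 1.17 ± 0.15 for P2rx5 and 1.07 ± 0.0072 for Panx1 (SD, n = 2 each). In untreated Cre-positive cells they were 3.19 ± 0.1 CPM per kb for P2rx4, 1.64 ± 0.15 for Nt5e, 1.33 ± 0.07 for Panx1, 1.04 ± 0.018 for P2rx5 and 0.342 ± 0.064 for P2rx7. In untreated Cre-negative cells P2rx4 stood at 7.23 ± 0.47 CPM per kb and Nt5e at 7.05 ± 0.22, which did not differ beyond their spread, nor did Panx1 at 2.14 ± 0.093 and P2rx5 at 2.05 ± 0.22. There P2rx7 was at 0.0732 ± 0.041 CPM per kb, below P2ry2 at 0.399 ± 0.086.

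The genes whose pattern was most like that of P2rx7 were found by Pearson correlation of log2 CPM over the 12 libraries, which share group, line and culture, among 10815 other genes. They were Zw10, for a kinetochore protein (r = 0.978), Exog, for a mitochondrial nuclease (r = 0.976), Itm2b (r = 0.969), Rnd3 (r = 0.965), the complement protease gene C1s1 (r = 0.962), Tlr3, for a sensor of double-stranded RNA (r = 0.96), Ogfr (r = 0.958) and Ptprq (r = 0.955). Their differences were much smaller in size: Zw10 averaged 83.3 ± 0.84 CPM in Cre-positive 4-OHT cells and 62.6 ± 0.71 CPM in untreated Cre-negative cells, and Tlr3 3.67 ± 0.031 and 1.02 ± 0.13 CPM in these groups (SD, n = 2 each). By Spearman correlation 0 of these 8 were among the 8 most alike, which were led by Ski and Spef1 (coefficient 0.965 each), so the list depends on the measure.

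The 6 nearest protein-coding genes around P2rx7 did not share its changes in size. With 4-OHT against ethanol in Cre-positive cells, the left neighbours Ift81, Atp2a2 and Anapc7 were at -0.08, -0.025 and 0.18 on the log2 scale (SE 0.0681, 0.0385 and 0.0534), and Anapc7 alone of these passed the test (edgeR adjusted p = 0.0111). To the right P2rx4 was at -0.27, Camkk2 at 0.056 (SE 0.0437) and Anapc5 at -0.027 (SE 0.0362). With ethanol against untreated in Cre-negative cells, where P2rx7 was at 2.00, Ift81 rose by 0.31 (SE 0.0694, edgeR adjusted p = 0.0021), Camkk2 by 0.21 (SE 0.0438, adjusted p = 0.0013) and Anapc5 by 0.10 (SE 0.0362, adjusted p = 0.0481), while Atp2a2 fell by 0.17 (SE 0.039, adjusted p = 0.00289).

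**Figure D4:**
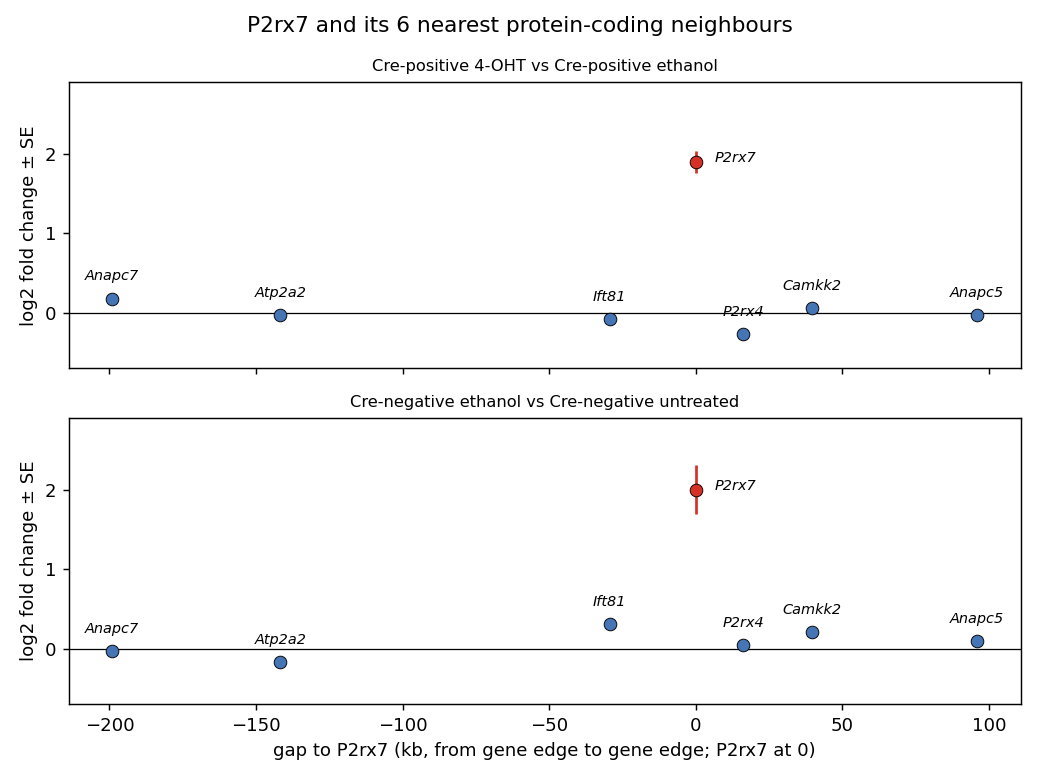
Log2 fold change with SE (vertical axes) of P2rx7 and its 6 nearest protein-coding neighbours by their gap to P2rx7 in kb (horizontal axis), for Cre-positive 4-OHT against ethanol (top) and Cre-negative ethanol against untreated (bottom). P2rx7 is at 1.90 and 2.00, and the neighbours lie between -0.27 and 0.31.

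The remaining genes of ATP and adenosine signalling were taken from lists of 51 genes, 29 of which passed the filter. With 4-OHT against ethanol in Cre-positive cells 5 of them rose and 4 fell (edgeR adjusted p under 0.05), beside 21.1% and 17.2% of all genes, and their median log2 change was 0.027, against 0.026 over all genes. No other P2X receptor (3 measured of 4), P2Y receptor (1 of 7), adenosine receptor (1 of 4) or ectonucleotidase (1 of 6) passed, nor did the intracellular NTPDases (3 of 4). P2rx6, the next P2X gene in level, was at 2.63 and 2.5 CPM with 4-OHT and 1.92 and 1.88 CPM with ethanol (log2 0.44, SE 0.209, edgeR adjusted p = 0.105). Untreated Cre-positive libraries held 2.64 and 2.70 CPM, near the 4-OHT level. Like P2rx7, it was higher in untreated Cre-positive than in untreated Cre-negative cells, averaging 2.67 ± 0.048 and 0.813 ± 0.034 CPM (SD, n = 2 each).

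Of 5 measured genes of adenosine handling, 3 rose and 2 fell with 4-OHT against ethanol in Cre-positive cells, where 38.3% of all genes passed. Against untreated Cre-positive cells 2 rose, 1 fell and 2 did not pass. The enzymes that clear adenosine and inosine rose with 4-OHT against ethanol in Cre-positive cells: the adenosine kinase gene Adk by 0.39 (SE 0.0388, edgeR adjusted p = 1.22e-07), the adenosine deaminase gene Ada by 0.28 (SE 0.0736, adjusted p = 0.00469) and the purine nucleoside phosphorylase gene Pnp by 0.24 (SE 0.0488, adjusted p = 0.000609). Both equilibrative nucleoside transporter genes fell, Slc29a1 by 0.23 (SE 0.0402, adjusted p = 0.000129) and Slc29a2 by 0.38 (SE 0.148, adjusted p = 0.0476). Adk was at 203 and 195 CPM with 4-OHT and 154 and 150 CPM with ethanol, with no overlap. The Slc29a2 call was lost without library 4 (adjusted p = 0.321) or 12 (0.452) and with DESeq2 (adjusted p = 0.132), and the Ada call without library 4 (adjusted p = 0.1) or 12 (0.0638). Against untreated Cre-positive cells Pnp was at -0.029 (SE 0.049, edgeR adjusted p = 0.676).

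Of 6 measured ATP release genes 2 fell, where 17.2% of all genes fell. Lrrc8c, for a subunit of the volume-regulated anion channel, fell by 0.55 (SE 0.0765, edgeR adjusted p = 9.46e-06), with 68.2 and 68.7 CPM in Cre-positive 4-OHT libraries and 92.2 and 108 CPM in ethanol libraries. Gja1, for connexin 43, fell by 0.16 (SE 0.0385, adjusted p = 0.00203). Among 9 measured genes linked to P2X7 and inflammasome signalling 2 rose, a share near the 21.1% of all genes that rose. Casp4, for an inflammatory caspase, rose by 1.00 (SE 0.167, adjusted p = 7.35e-05), with 4.47 and 4.36 CPM with 4-OHT and 2.32 and 2.11 CPM with ethanol. Casp1 rose by 1.31 (SE 0.437, adjusted p = 0.0222), from 23 and 31 counts in 4-OHT libraries against 5 and 14 counts in ethanol libraries, a call lost without library 3 (log2 0.79, adjusted p = 0.245) or 12 (log2 0.96, adjusted p = 0.201). The sensor gene Nlrp3 had 0 to 2 counts and Il1b 0 or 1 in every library, below the filter.

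**Figure D5:**
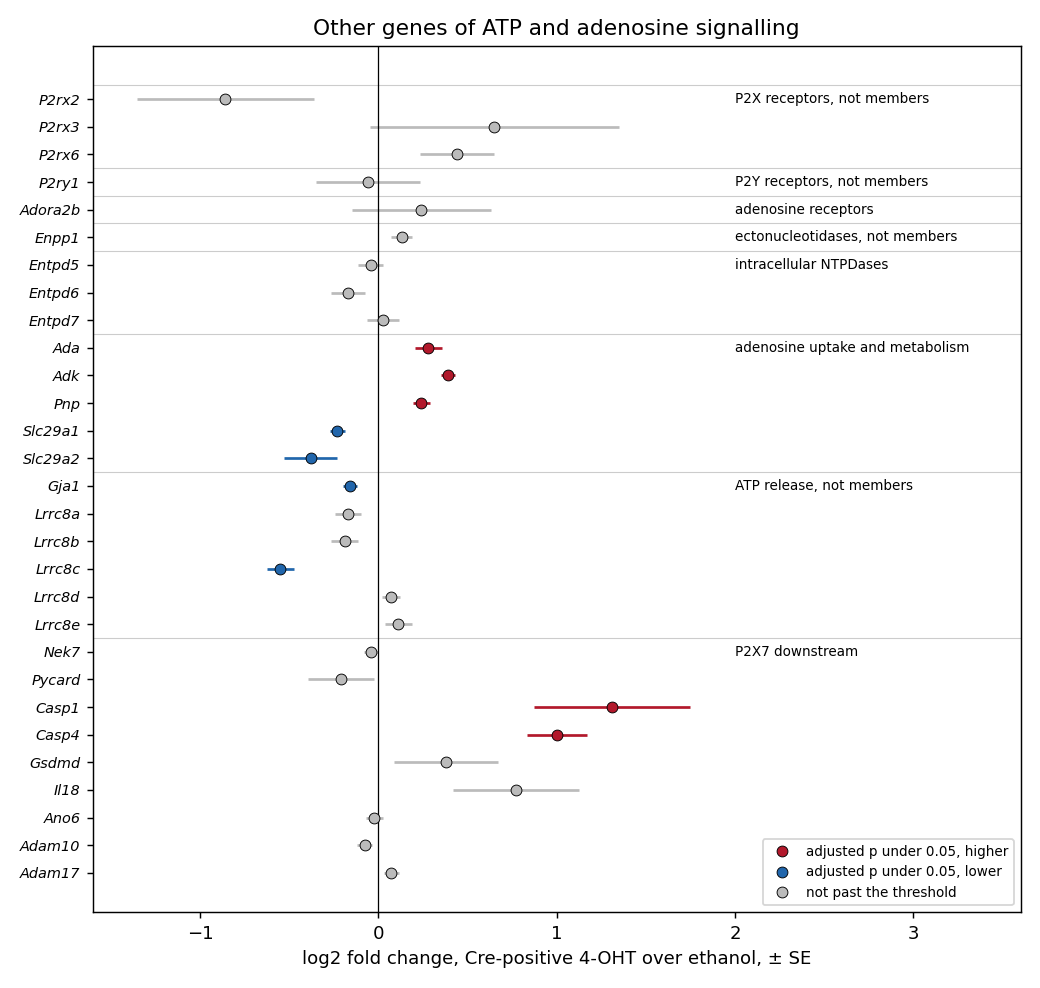
Log2 fold change with SE (horizontal axis) of the 29 measured genes of the ATP and adenosine lists (vertical axis, grouped by list) for Cre-positive 4-OHT against ethanol, coloured by the edgeR call. Casp1 at 1.31 and Casp4 at 1.00 are the highest, and 20 of the 29 are grey, not past the threshold.

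Since P2rx7 is best known from macrophages, their markers were read beside it. The 12 markers summed to 9.89 to 9.99 CPM in Cre-positive 4-OHT libraries, 8.38 to 8.77 CPM with ethanol and 9.83 to 11.3 CPM untreated, and in Cre-negative libraries to 8.52 to 8.96 CPM with 4-OHT, 8.61 to 10.8 CPM with ethanol and 12.3 to 13.1 CPM untreated. Tyrobp had 0 counts in every library, Adgre1 had 0 or 1 and Ptprc 0 to 3. Some other markers, at low counts, went with P2rx7. Csf1r was at 0.453 to 0.499 CPM in Cre-positive 4-OHT libraries, 0.368 to 0.369 CPM with ethanol and 0.393 CPM untreated. In Cre-negative libraries Csf1r was at 0.221 to 0.297 CPM with 4-OHT, 0.308 to 0.388 CPM with ethanol and 0.176 to 0.215 CPM untreated. Fcer1g did so in part, averaging 0.291 CPM with 4-OHT, 0.122 CPM with ethanol and 0.31 CPM untreated in Cre-positive cells. Laptm5 had 2 and 3 counts in Cre-positive 4-OHT libraries and 0 in the other 10. Aif1 had 4 counts in library 12 and 0 elsewhere. Itgam had 8 and 3 counts with 4-OHT in Cre-positive cells and 0 to 2 in every other library. Other markers did not go with P2rx7. Lyz2 had 2 counts with 4-OHT, 1 with ethanol and 2 untreated in Cre-positive cells, and 25 to 34 in each Cre-negative group. Ptprc had 2 counts in the Cre-positive 4-OHT group and 5 with ethanol. Cd68 averaged 2.73 ± 0.57 CPM in Cre-positive 4-OHT cells, 3.30 ± 0.12 with ethanol and 3.66 ± 0.057 in untreated Cre-negative cells (SD, n = 2 each). Cd14 and Cd68 carried most of the sum, and without this pair, left out after their values were seen, the other 10 markers summed to 1.39 to 1.43 CPM in Cre-positive 4-OHT libraries, 0.921 to 1.01 CPM with ethanol and 1.13 to 1.18 CPM untreated. In Cre-negative libraries these 10 summed to 1.19 to 1.46 CPM with 4-OHT, 1.12 to 1.37 CPM with ethanol and 1.06 to 1.18 CPM untreated. Of the 4 macrophage markers tested for Cre-positive 4-OHT against ethanol, Cd14 alone passed, rising by 0.44 (SE 0.137, edgeR adjusted p = 0.0151). Against untreated Cre-positive cells 0 of the 4 passed. Cd14 averaged 5.81 ± 0.68 CPM with 4-OHT, 4.31 ± 0.21 with ethanol and 6.60 ± 0.79 untreated in Cre-positive cells (SD, n = 2 each). It was highest in untreated Cre-negative cells, at 7.91 ± 0.65 CPM, where P2rx7 was lowest. Glial and neural markers, the other cells known for P2rx7, summed to 7.32 to 7.61 CPM in Cre-positive 4-OHT libraries, 5.60 to 5.82 CPM with ethanol and 5.80 to 6.45 CPM untreated. In Cre-negative libraries they summed to 5.09 to 5.92 CPM with 4-OHT, 5.09 to 6.59 CPM with ethanol and 3.30 to 3.61 CPM untreated. The neuronal tubulin gene Tubb3 carried most of this sum, at 6.23 and 6.53 CPM in Cre-positive 4-OHT libraries, 3.50 to 4.76 CPM in the other treated and the untreated Cre-positive libraries, and 2.11 and 1.79 CPM in untreated Cre-negative ones. The 4 endothelial markers summed to 1.30 to 1.46 CPM in Cre-positive 4-OHT libraries and to at most 0.932 CPM in each other group. Tek, for the angiopoietin receptor, carried most of the sum in Cre-positive 4-OHT libraries, at 1.02 and 1.13 CPM. With ethanol Tek was at 0.553 and 0.436 CPM (log2 1.12, SE 0.368, edgeR adjusted p = 0.0204). Kdr was lower in the Cre-positive line, averaging 0.0733 ± 0.057 CPM (SD, n = 2) with 4-OHT, against 0.404 to 0.579 CPM in the Cre-negative groups. Within Cre-positive cells Kdr had 5 counts with 4-OHT, 2 with ethanol and 1 untreated. Cdh5 had 0 to 2 counts per group. Pecam1 averaged 0.221 ± 0.11 CPM with 4-OHT, 0.0519 ± 0.021 with ethanol and 0.162 ± 0.12 untreated in Cre-positive cells. In untreated Cre-negative cells it averaged 0.178 ± 0.0021 CPM. The 4 epithelial markers summed to 1.25 to 1.30 CPM in Cre-positive 4-OHT libraries, 0.589 to 1.04 CPM with ethanol and 0.708 to 0.786 CPM untreated, and were highest in Cre-negative library 6, at 2.91 CPM. The part of these markers in the P2rx7 result was not tested. In bulk RNA, fewer cells of a type and less RNA per cell cannot be told apart.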

How the data were processed

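Expected counts, deposited by the authors as whole numbers, were read by gene symbol for the 12 libraries. Tools in the submitters' processing notes are RSEM 1.2.30, STAR 2.5.2a, cutadapt 1.11 and edgeR, with the GRCm38 build. Per the labels' protocols, total RNA was depleted of ribosomal RNA with Ribo-Zero Gold and sequenced in read pairs from a stranded kit. Annotation, strand setting and rounding: not given in the sources used here.

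Each library was counted as 1 replicate. The libraries of a group differed by more than sampling noise (chi-square over degrees of freedom 2.52 to 5.03), which does not show that they were separate cultures. In R 4.3.3 with edgeR 4.0.16, genes passing filterByExpr were TMM-scaled (factors 0.972 to 1.02) and fitted by quasi-likelihood with 1 mean per group over all 12 libraries. The biological coefficient of variation was 3.44%, with 6 residual and 14.6 prior degrees of freedom. The 2-sided tests of 11 comparisons were adjusted by Benjamini and Hochberg over all 17609 genes, with a threshold of 0.05. CPM of the 2 genes below the filter use the same scaling. Floors of 3 counts cover counting error only. Coordinates and exonic lengths came from GENCODE M21, where each of the 8 symbols matched 1 gene.

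All 8 genes were named in each comparison, with up to 12 list genes of largest change among those that passed in Cre-positive 4-OHT against ethanol, the 8 genes most like P2rx7 at a mean log2 CPM of 1 or more, and 3 neighbours on each side. Nabp1 and Nabp2, P2rx6, Nlrp3, Il1b and the cell markers were read as checks or chosen after their values were seen. Members and lists were chosen with earlier results of these data known. Alternatives were DESeq2 1.42.0, RLE size factors, no filter, fits of the compared groups alone, a joint control and leaving out each library. The code was tested on simulated data.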

Additional observations from a re-analysis of the deposited data

Results flagged for a closer look

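The named list genes were chosen for passing in Cre-positive 4-OHT against ethanol, which is part of the comparisons below, so their values describe them and test nothing. For 4 of them the difference between the lines in the change with 4-OHT against ethanol lay past the edgeR threshold. The Cre-positive minus the Cre-negative change was 1.54 for Casp4 (SE 0.254), 0.37 for Adk (SE 0.0565), -0.49 for Lrrc8c (SE 0.11) and -0.19 for Gja1 (SE 0.054), all in log2 units. The Gja1 value was -0.16 and no longer past the threshold without library 5 or 11. Over the whole lists 6 of 29 genes passed, beside 28.3% of all genes. In Cre-negative cells alone, 4-OHT against ethanol gave -0.54 for Casp4 (SE 0.191, edgeR adjusted p = 0.104).

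For 2 of them the difference between the lines in the change with ethanol against untreated, which uses the same Cre-positive ethanol libraries, also lay past the threshold. The Cre-positive minus the Cre-negative change was -0.85 for Casp4 (SE 0.285) and 0.43 for Lrrc8c (SE 0.109). Neither passed with DESeq2. Without Cre-negative library 2 they were -0.53 and 0.26, neither past the threshold. Casp4 was also not past it without library 4, 7, 8, 9 or 10 or with the compared groups alone, nor Lrrc8c without library 4 or 10. Over the whole lists 7 of 29 genes passed, beside 16.3% of all genes. Casp4 rose with ethanol against untreated in Cre-negative cells (log2 0.80, SE 0.2, edgeR adjusted p = 0.00506).

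For P2ry2 both 4-OHT libraries lay below both ethanol libraries in Cre-positive cells (log2 -0.84, SE 0.367, not tested). In Cre-negative cells both lay above them (log2 0.68, SE 0.298, edgeR adjusted p = 0.2). The Cre-positive minus the Cre-negative change was -1.53 (SE 0.472), and the difference was not tested.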

How the results depend on the processing

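Of 518 member values under alternative settings, 485 kept their side of the threshold or stayed within the spread, and 33 did not. Values not past the threshold could change sign and still be counted among the 485. Of the called ones 0 reversed. A group left with 1 library was assumed to vary like the others. P2rx7 with 4-OHT against ethanol in Cre-positive cells was at 2.22 with a joint control of ethanol and untreated libraries, and at 1.82 to 1.98 with 1 library left out.

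Counts of all genes called moved most where changes were small. With 1 library left out, 4-OHT against ethanol in Cre-negative cells called 301 to 609 genes in place of 1054 (1609 with the compared groups alone), 4-OHT against untreated 2164 to 2467 in place of 3388, and ethanol against untreated 2759 to 3284 in place of 4313. Ethanol against untreated in Cre-positive cells called 1423 to 2490 in place of 2632. The difference of ethanol effects called 1792 to 3077 in place of 2871, and 1902 with DESeq2. The cause was not tested, beyond the smaller number of samples.

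Counts of members past the threshold also moved; those for comparisons with Cre-positive 4-OHT or ethanol libraries include P2rx7, which these libraries chose, and are descriptions. Cre-positive ethanol against untreated had 2 of 6 (P2rx7 and P2rx5), but 0 with DESeq2 or the compared groups alone, 1 with no filter, and 0 to 1 with 1 library left out. Leaving out 1 library gave 1 to 3 in place of 3 for Cre-positive 4-OHT against untreated, 1 in place of 2 for 4-OHT against ethanol in Cre-negative cells, 1 to 3 in place of 3 for the difference of 4-OHT effects (1 with DESeq2), and 0 to 1 in place of 1 for the difference of ethanol effects. No paired analysis was possible because library numbers in the titles are unique. Depth limits P2ry6 and Entpd1, at 5 counts or fewer per library.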
